A study of Mus musculus with 6 samples.

Results

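The genes described here make, clear and sense prostaglandins: Pla2g4a, Ptgs1, Ptgs2, Ptges, Ptges2, Ptges3, Ptgis, Hpgd, Ptger1 and Ptger4. They were taken by symbol, as the rows of the deposited expression table whose Ensembl gene has one of these names in the GENCODE M21 annotation, and all 10 were found among its 22442 genes.

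Prostaglandins are lipid signals made on demand from arachidonic acid, which a phospholipase frees from membranes. A cyclooxygenase (Ptgs1 or Ptgs2) turns it into prostaglandin H2, and a terminal synthase then sets which prostaglandin is formed. The product leaves the cell, acts on G protein-coupled receptors on the same or nearby cells, and is taken up again and oxidised. Ptgs2 is the cyclooxygenase known for its induction by bacterial lipopolysaccharide (LPS) and cytokines, and in the kidney prostaglandin E2 is known for its part in salt and water handling and in blood flow.

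The data were RNA-seq libraries of mTECs, mouse renal tubular epithelial cells, in 2 groups of 3. All 6 cultures received LPS at 20 μg/ml for 24 h, after transfection with a negative control (label LPS) or with RNA against Stat3 (label LPSKD), a transcription factor activated by cytokines. The labels call that RNA an siRNA, whereas the supplement of the paper lists an shRNA against mouse Stat3. No genotype or age is attached to these cultured cells, the paper calls the line immortalised whereas the labels speak of sorted cells, and no library without LPS was analysed here, so the levels below are those under LPS and carry no measure of induction by it. Nothing in the labels says that the cultures were grown on separate days, and the p-values cover the spread between these libraries, which may be partly technical.

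The table gives FPKM, in which a gene's fragment count is divided by its length and by the library's total. The libraries held between 24084827 and 25422171 fragments, so depth was nearly even. Stat3 itself (chr11:100885098-100939540, minus strand) had 34.6, 31.4 and 35.2 FPKM in the libraries labelled LPS, against 30.8, 35.2 and 34.3 in those labelled LPSKD. These ranges overlapped, with a log2 fold change of −0.01 (SE 0.07, limma adjusted p = 0.944), and the groups are therefore called by their labels throughout. The paper reports knockdown of Stat3 in mTECs by real-time PCR and western blot, without saying whether the sequenced cultures were among those checked. Of 13 markers of tubular epithelium, Epcam, Cdh1, Cdh16, Krt8, Krt18 and Krt19 were at 131.2 FPKM or more in every library. By contrast, Lrp2 had at most 3 fragments and Slc34a1, a proximal tubule phosphate carrier, had 0. The summed FPKM of the 13 was between 3821 and 3894 under the label LPS and between 3809 and 3861 under LPSKD, and in the limma test described below 4 of the 11 tested were called higher (Cdh16, Pax8, Pax2 and Aqp1) and 1 lower (Krt18) under LPSKD, beside 3.23% of all tested genes called in either direction and 1.57% called higher. With each library left out in turn, Pax8 and Pax2 stayed under an adjusted p of 0.05 and the other 3 did not.

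**Figure D1:**
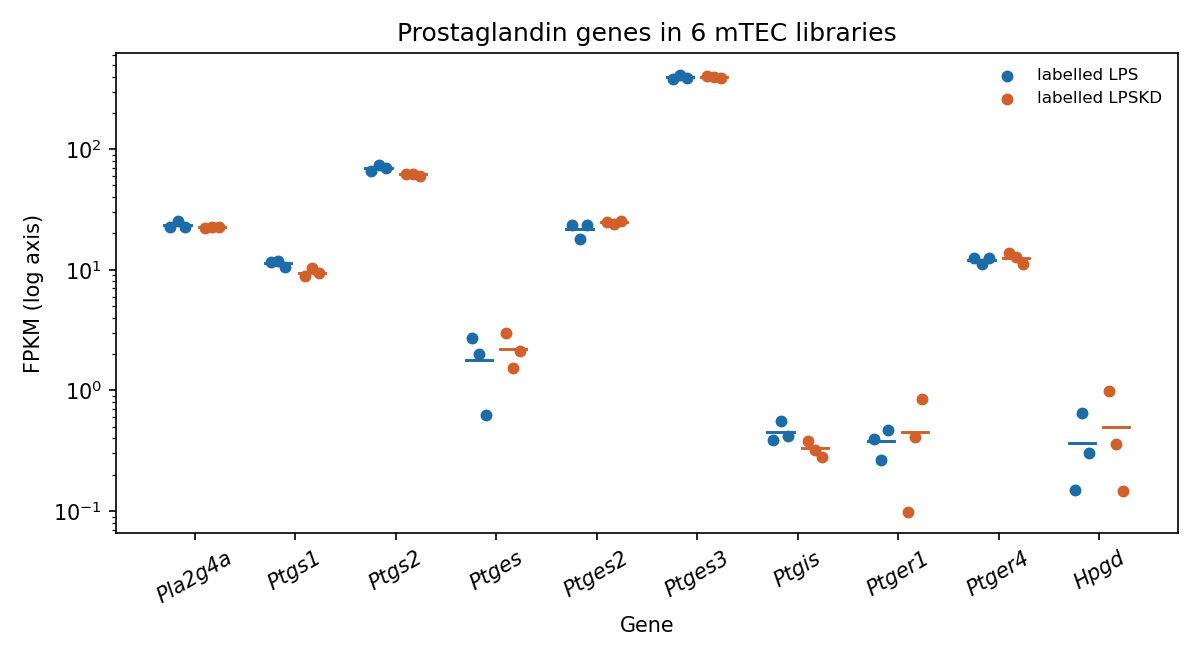
FPKM (log axis) of each of the 10 genes in the 6 libraries, with 1 point per library and a bar at each group's mean. Ptges3 and Ptgs2 stood above the other genes in every library, and Ptgis, Ptger1 and Hpgd stayed under 1 FPKM in every library.

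The question put to the comparison was whether transcript levels along this pathway differed between the libraries labelled LPSKD and those labelled LPS. Both cyclooxygenases were lower on average under the label LPSKD, by 0.26 (Ptgs1) and 0.19 (Ptgs2) on the log2 scale, without passing the test. The phospholipase, the main terminal synthases and the receptor Ptger4 had 95% confidence intervals that included 0. The 2 genes that rose were outside the 10, the reductase Akr1b3 and the exporter Abcc4.

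The test was limma on log2(FPKM + 0.1) across the 11723 genes that averaged 0.5 FPKM or more, with Benjamini-Hochberg adjustment over all of them. Low genes change by more than this scale shows, because of the added 0.1. Of the 10 genes, 7 reached that mean, and 0 of the 7 had an adjusted p under 0.05, where 3.23% of all tested genes did. At an unadjusted p under 0.05 the count was 2 (Ptgs1 and Ptgs2), where 17.6% of all tested genes passed. When voom, limma's method for counts, was run on the whole fragments recovered from the table, it called 1 of the 7, Ptgs2, beside 5.12% of all tested genes. The 7 log2 fold changes had a median of 0.02 and ran from −0.26 to 0.46, while the median over all tested genes was −0.01. Ptgis, Ptger1 and Hpgd were below the mean of 0.5 FPKM and were read from a fit of all 16837 genes above 0, in which none of the 3 passed. In RNA from whole cultures, fewer cells carrying a transcript and less transcript per cell cannot be told apart.

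Pla2g4a encodes the cytosolic phospholipase A2 that releases arachidonic acid in response to calcium, and lies at chr1:149829618-149961290 on the minus strand. It had 22.6, 25.3 and 22.5 FPKM in the libraries labelled LPS, against 22.2, 22.8 and 22.8 in those labelled LPSKD. The groups overlapped and 1 library labelled LPS was the highest of the 6. The log2 fold change was −0.05 (SE 0.06, 95% confidence interval −0.20 to 0.09, limma adjusted p = 0.725), from 1238 to 1420 fragments per library. The gene next in the pathway, Ptgs2, is also close on the chromosome, since the starts of the 2 genes, on opposite strands, lie 138.7 kb apart in the annotation.

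The cyclooxygenase genes differ in the sequence just before their start sites and in their 3′ ends. The 250 bases before the RefSeq start of each are shown because these genes had the lowest unadjusted p of the 10, and the capitals mark the palindrome TTGCGCAA, a site of the C/EBP family. On GRCm38.p6 the Ptgs1 stretch is chr2:36230176-36230425 and the Ptgs2 stretch chr1:150099781-150100030, both on the plus strand.
Ptgs1: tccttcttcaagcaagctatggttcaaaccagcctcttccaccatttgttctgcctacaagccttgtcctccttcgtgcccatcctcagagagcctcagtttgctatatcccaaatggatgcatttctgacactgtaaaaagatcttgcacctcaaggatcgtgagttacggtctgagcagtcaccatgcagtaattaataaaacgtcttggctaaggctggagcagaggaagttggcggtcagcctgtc
Ptgs2: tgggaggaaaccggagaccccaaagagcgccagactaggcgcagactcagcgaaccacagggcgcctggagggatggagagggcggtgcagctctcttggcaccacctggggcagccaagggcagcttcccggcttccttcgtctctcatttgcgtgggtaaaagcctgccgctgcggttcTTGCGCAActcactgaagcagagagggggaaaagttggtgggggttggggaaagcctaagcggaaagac
The Ptgs2 stretch had a GC content of 61.6% and the Ptgs1 stretch 48.0%, beside a median of 52.4% over all promoters in the RefSeq table. TTGCGCAA, added to the search after these promoters had been seen, lay from 69 to 62 bases before the Ptgs2 start, and 54 of 32851 promoters (0.164%) hold it. The motifs TTCNNNGAA (STAT, in 7.02% of all promoters), GGGNNTTCC (NF-κB, 4.98%), TGACGTCA (CRE, 1.55%), GAAANNGAA (ISRE core, 7.13%) and TATAAA (12.4%) were searched on both strands of the 250 bases before the start. None of these 5 was in the Ptgs1 or Ptgs2 stretch. Among the 8 genes of the 10 with an entry the single match was TATAAA in a stretch of Pla2g4a, 200 to 195 bases before the start. It lay on the strand opposite to the gene, so that the gene's own strand reads TTTATA. A match or its absence describes these letters alone.

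Ptgs2 mRNA is known to be short-lived through AU-rich elements after its stop codon, and that stretch is shown for this reason, with each ATTTA in capitals. It begins at base 12 after the stop codon and lies at chr1:150105794-150105823 on the plus strand of GRCm38.
Ptgs2 3′ UTR: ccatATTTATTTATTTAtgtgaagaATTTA
The 30 bases hold 4 copies of ATTTA. The whole 3′ UTR of 2445 bases holds 14, a number reached by 3.1% of 20765 genes and by 1.74% of the 3157 genes with a 3′ UTR of like length. The Ptgs1 3′ UTR, shorter at 921 bases, holds 0. A high number for the length was not particular to Ptgs2, since the 443 bases of the Pla2g4a 3′ UTR hold 4, reached by 2.9% of 1968 genes of like length.

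Ptgs2 (chr1:150100031-150108227) encodes the inducible cyclooxygenase. It had 66.3, 74.5 and 70.2 FPKM in the libraries labelled LPS, against 62.6, 62.6 and 60.1 in those labelled LPSKD. Every library labelled LPS was above every library labelled LPSKD, with means of 70.3 ± 4.10 and 61.8 ± 1.45 FPKM (SD, n = 3 each). The log2 fold change was −0.19 (SE 0.05, 95% confidence interval −0.30 to −0.07), the unadjusted p from limma was 0.00602 and the adjusted p was 0.106. In an exact two-sided permutation test of 3 libraries against 3 the smallest possible p is 0.1, which Ptgs2 reached. The adjusted p from limma became 0.0461 with voom on the 2734 to 3361 recovered fragments, and 0.0493 without LPS replicate 1, the lowest of its group. Without LPSKD replicate 3 it was 0.284, so this call depends on the fit and on single libraries.

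Ptgs1 (chr2:36230426-36252272) encodes the cyclooxygenase usually described as constitutive. Its level was 11.6, 11.8 and 10.5 FPKM under the label LPS and 8.80, 10.3 and 9.32 FPKM under LPSKD. The groups did not overlap, but the lowest value labelled LPS and the highest labelled LPSKD were close, 464 and 446 fragments. The means were 11.3 ± 0.694 and 9.45 ± 0.735 FPKM (SD, n = 3 each), and the log2 fold change was −0.26 (SE 0.09, 95% confidence interval −0.46 to −0.05, limma adjusted p = 0.189). Of the stretches of 31 bases in its coding sequence, 6.76% also occur in Gm43621, annotated on the opposite strand, and the sources used here do not say whether fragments were counted by strand.

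Within a library, Ptgs2 made up most of the cyclooxygenase FPKM. Its share of the sum of Ptgs1 and Ptgs2 was 85.1%, 86.3% and 87.0% under the label LPS and 87.7%, 85.9% and 86.6% in libraries labelled LPSKD. The shares overlapped and averaged 86.1% ± 0.939 and 86.7% ± 0.881 (SD, n = 3 each; two-sided exact permutation test, p = 0.5). Benjamini-Hochberg adjustment over the 3 within-library measures gave 0.6 for each of them. A difference in the balance of the isozymes was not detectable with 3 libraries a group.

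**Figure D2:**
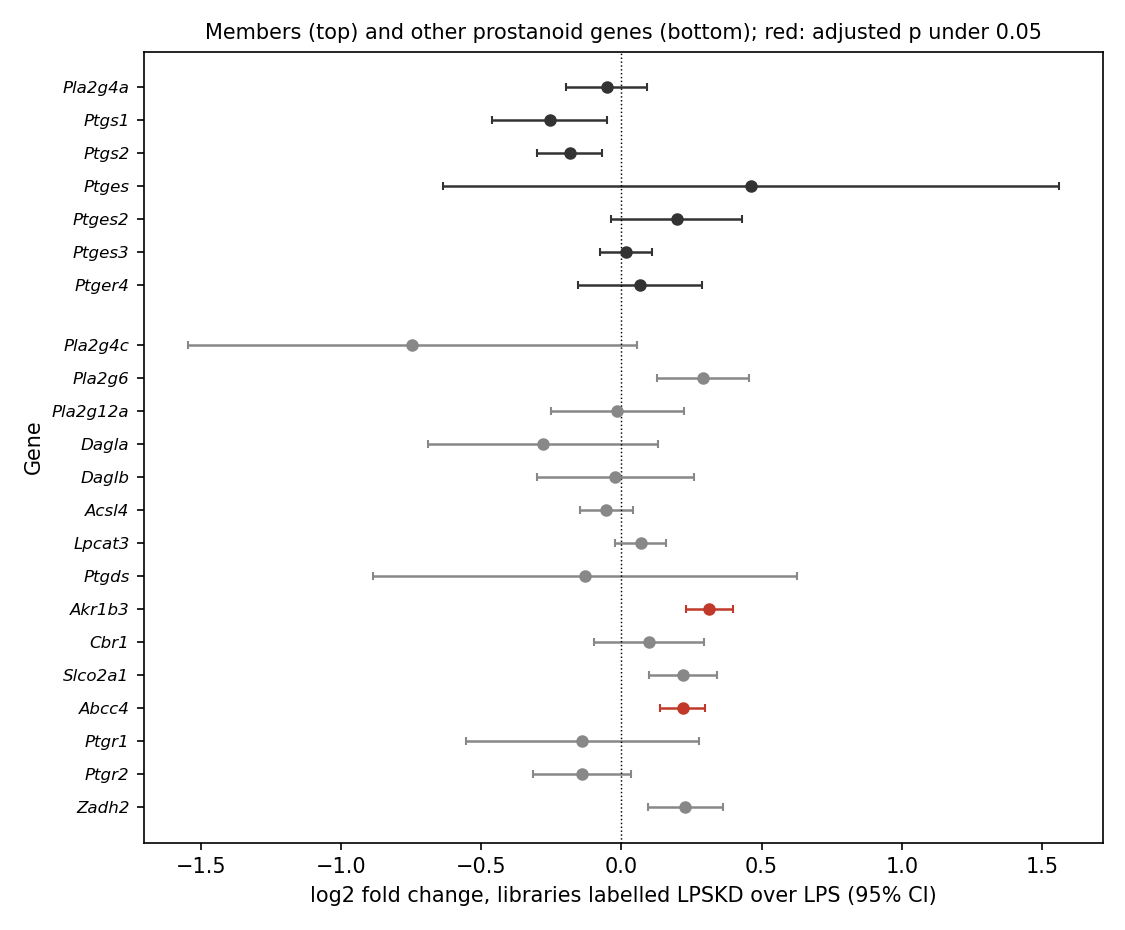
Log2 fold change, libraries labelled LPSKD over those labelled LPS, with 95% confidence intervals from limma, for the 7 tested genes of the 10 (top) and 15 tested further genes of the prostanoid pathway (bottom). Ptgs1 and Ptgs2 lie left of 0, and Akr1b3 and Abcc4, in red, are the genes with an adjusted p under 0.05.

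Of the genes for prostaglandin E2 synthases, none had a 95% confidence interval of its log2 fold change that left out 0. Ptges encodes the inducible microsomal enzyme that is usually coupled to Ptgs2. It had 2.71, 2.01 and 0.624 FPKM under the label LPS and 2.97, 1.54 and 2.14 under LPSKD, from 7 to 34 fragments. LPS replicate 3 was the lowest of the 6, the groups overlapped, and the log2 fold change of 0.46 (SE 0.48, limma adjusted p = 0.683) turned to −0.12 without that library.

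Ptges2 encodes a membrane-associated synthase (chr2:32395896-32405772). It reached 23.4, 18.1 and 23.6 FPKM under the label LPS, against 24.9, 23.8 and 25.5 in those labelled LPSKD. Every value labelled LPSKD was higher, although the gap from 23.6 to 23.8 FPKM was small and LPS replicate 2 stood below the rest. Its log2 fold change was 0.20 (SE 0.10, 95% confidence interval −0.04 to 0.43, limma adjusted p = 0.369), and 0.07 without LPS replicate 2. Ptgs1, Ptgs2 and Ptges2 were the 3 of the 7 tested genes whose groups did not overlap, beside 23.8% of all tested genes.

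Ptges3 encodes the cytosolic synthase, a protein also known as the Hsp90 co-chaperone p23. It was the most abundant of the 10, with 378.6, 413.4 and 390.2 FPKM under the label LPS and 406.9, 399.3 and 388.9 under LPSKD. The groups overlapped fully (log2 fold change 0.02, SE 0.04, 95% confidence interval −0.08 to 0.11, limma adjusted p = 0.881). Its level is uncertain, since 94.1% of the 31-base stretches of its coding sequence also occur in the near-copies Gm11893 and Ptges3-ps. Set against the FPKM of all 3 E2 synthases, Ptges took 0.429% ± 0.262 under the label LPS and 0.520% ± 0.160 under LPSKD (SD, n = 3 each; two-sided exact permutation test, p = 0.6).

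Ptgis (chr2:167191805-167240604, minus strand) encodes prostacyclin synthase. It was near the limit of detection, with 16, 23 and 17 fragments under the label LPS and 16, 13 and 12 under LPSKD, or 0.385, 0.554 and 0.417 against 0.384, 0.323 and 0.283 FPKM. The groups touched, with equal fragments in a library of each. The log2 fold change was −0.35 (SE 0.27, limma adjusted p = 0.646 in the fit of all genes above 0), and it was −0.23 without LPS replicate 2 and −0.13 with a pseudocount of 1. Of its coding stretches, 7.81% are shared with a gene annotated on the opposite strand, 1110018N20Rik.

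Among 6 further prostanoid synthases, 3 reached the mean of 0.5 FPKM and 1 was called, higher in the libraries labelled LPSKD, where 1.57% of all tested genes were called in that direction. This was Akr1b3 (chr6:34302434-34317478, minus strand), the mouse aldose reductase, which can also form prostaglandin F2α. It had 227.2, 238.5 and 229.7 FPKM under the label LPS and 281.1, 297.7 and 285.5 under LPSKD. All 3 libraries labelled LPSKD were above all 3 labelled LPS, and the log2 fold change was 0.31 (SE 0.04, limma adjusted p = 0.00315, from 1.72e-04 to 0.0499 over 16 alternative fits). Cbr1, which reduces prostaglandin E2 to F2α, averaged 30.2 ± 1.44 and 32.4 ± 3.75 FPKM (SD, n = 3 each; limma adjusted p = 0.617). Ptgds and Hpgds, the D2 synthases, and Tbxas1, the thromboxane synthase, had at most 36, 8 and 16 fragments in a library. Prxl2b, a further F2α synthase, had 6, 1 and 5 fragments under the label LPS and 0 in each library labelled LPSKD, where a count of 0 still allows up to 3 (limma adjusted p = 0.117 in the fit of all genes above 0).

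The receptors were represented by 1 gene at a clear level. Ptger4 (chr15:5206661-5244187, minus strand) encodes EP4, a prostaglandin E2 receptor that raises cyclic AMP. It had 12.5, 11.1 and 12.4 FPKM under the label LPS, against 13.8, 12.8 and 11.2 under LPSKD, from 425 to 531 fragments. The groups overlapped across most of their range, and the log2 fold change was 0.06 (SE 0.10, 95% confidence interval −0.16 to 0.29, limma adjusted p = 0.790).

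Ptger1 (chr8:83666678-83672753) encodes EP1, which signals through calcium. It had 12, 8 and 14 fragments under the label LPS, against 3, 12 and 26 under LPSKD. Both the lowest and the highest count were labelled LPSKD, and the log2 fold change of −0.04 had an SE of 0.56 (limma adjusted p = 0.992). These counts are too few, and too uncertain in their assignment, for a statement on this receptor. The other 7 prostanoid receptors were at or near 0: Ptger2, which also raises cyclic AMP, had at most 8 fragments in a library, Ptger3, Ptgdr2, Ptgir and Tbxa2r had at most 2, and Ptgdr and Ptgfr had 0 in all 6, which allows up to 3 fragments each per library.

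Clearance was measured through Hpgd (chr8:56294585-56321043), the dehydrogenase that starts the breakdown of prostaglandins. Its counts were 3, 13 and 6 fragments under the label LPS and 20, 7 and 3 under LPSKD, or between 0.146 and 0.991 FPKM. The groups overlapped fully, with a log2 fold change of 0.24 (SE 0.62, limma adjusted p = 0.896). The log2 ratio of Ptgs2 to Hpgd, which sets synthesis against breakdown, was 7.38 ± 0.709 and 6.96 ± 1.05 (SD, n = 3 each; two-sided exact permutation test, p = 0.6), with between 3 and 20 Hpgd fragments behind it in a library.

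Transport and reduction genes were far more abundant than Hpgd, and 1 of these 5 was called, beside 3.23% of all tested genes. Abcc4 (chr14:118482692-118706219, minus strand), an exporter of prostaglandins and cyclic AMP, had 151.3, 149.2 and 152.5 FPKM under the label LPS and 179.5, 170.2 and 177.6 under LPSKD. The groups were well apart and the log2 fold change was 0.22 (SE 0.03, limma adjusted p = 0.0138). That call was lost without LPS replicate 3 (adjusted p = 0.0639), without LPSKD replicate 1 (0.0762) or without LPSKD replicate 3 (0.0769), and over all 16 alternative fits the adjusted p ran from 7.26e-04 to 0.0862. Slco2a1, the prostaglandin uptake carrier, had 198.4, 175.0 and 187.4 FPKM under the label LPS and 222.1, 206.8 and 223.5 under LPSKD. Its groups did not overlap, with a log2 fold change of 0.22 (SE 0.05) that missed the threshold (limma adjusted p = 0.0719, from 0.0127 to 0.226 over the alternatives).

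Of the reductases that act on the oxidised products, Zadh2 averaged 31.9 ± 1.29 and 37.4 ± 2.08 FPKM (SD, n = 3 each), with a limma adjusted p of 0.0871. Ptgr2 averaged 34.2 ± 3.56 and 30.8 ± 0.842 FPKM (SD, n = 3 each), with a limma adjusted p of 0.383. Neither passed, and their means differed in opposite directions.

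Arachidonate release and re-uptake were represented by 22 further genes, of which 7 were tested and 0 were called by limma. Only 1 had an unadjusted p under 0.05 and 1 was called by voom, in both cases Pla2g6, beside 17.6% and 5.12% of all tested genes. Pla2g6, the calcium-independent phospholipase A2, averaged 14.5 ± 0.777 FPKM under the label LPS and 17.7 ± 0.908 under LPSKD (SD, n = 3 each; log2 fold change 0.29, SE 0.07, limma adjusted p = 0.0768, and 0.0262 with voom). Pla2g12a, a secreted phospholipase, averaged 19.9 and 19.8 FPKM. Acsl4 and Lpcat3, which return arachidonate to membrane lipids, averaged 79.5 and 81.2 FPKM under the label LPS, and 76.6 and 85.2 under LPSKD (limma adjusted p = 0.560 and 0.414). Over all 40 further genes of the pathway, 7 were at 0 in every library, 15 were tested and 2 were called, both higher in the libraries labelled LPSKD. Of all tested genes, 3.23% were called in either direction and 1.57% were called higher. The median log2 fold change of the 15 was −0.01. Groups did not overlap in 7 of the 15, beside 23.8% of all tested genes.

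**Figure D3:**
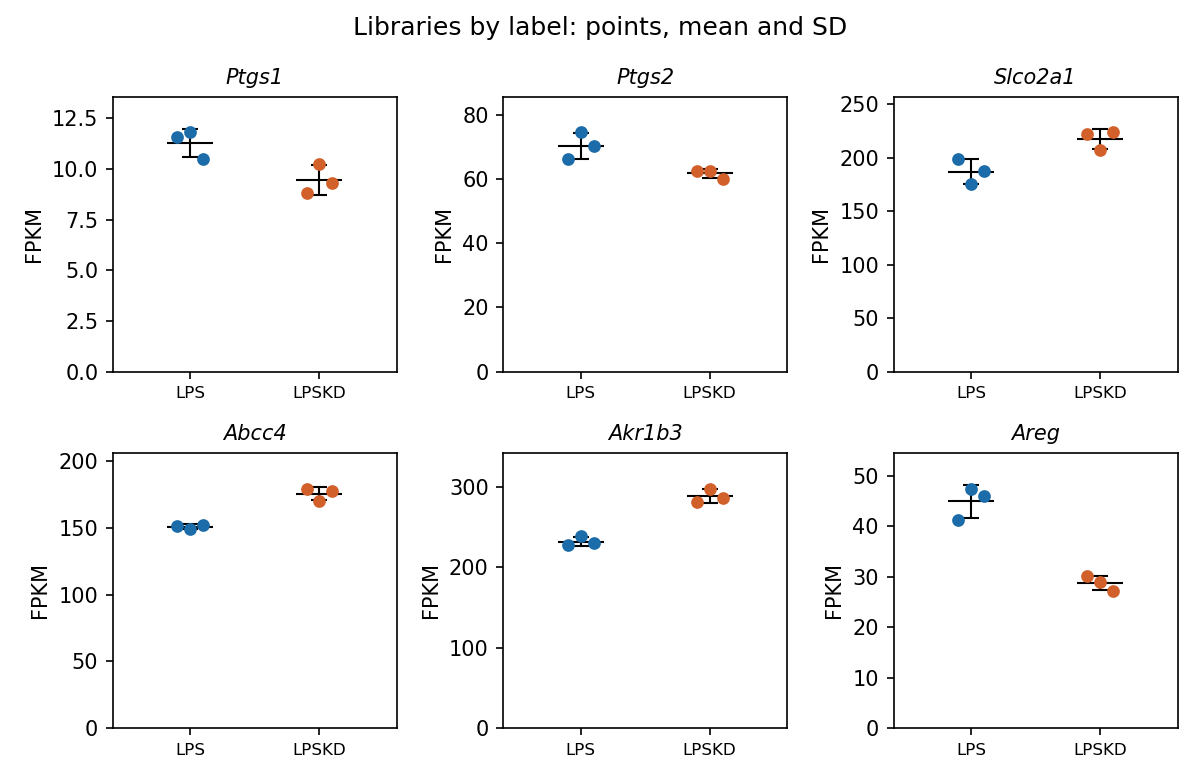
FPKM in each library for Ptgs1, Ptgs2, Slco2a1, Abcc4, Akr1b3 and Areg, with points for libraries and lines for the mean and SD (n = 3 per group); each axis starts at 0. The groups do not overlap in any of the 6 panels, and Akr1b3, Abcc4 and Areg had an adjusted p under 0.05.

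The order of levels can be compared between genes only per length, and FPKM here is per kilobase of coding sequence. Over the 6 libraries the means were 396.2 FPKM for Ptges3, 66.0 for Ptgs2, 23.2 for Ptges2, 23.0 for Pla2g4a, 12.3 for Ptger4 and 10.4 for Ptgs1. Ptges followed at 2.0, and Hpgd, Ptger1 and Ptgis were at 0.433, 0.414 and 0.391 FPKM. Neighbours were apart in all 6 libraries after Ptges3, after Ptgs2, after Pla2g4a and after Ptgs1, while the ranges of Ptges2 and Pla2g4a, of Ptger4 and Ptgs1, and of the last 4 with their neighbours overlapped.

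The length used matters for this order. The sources do not say whether fragments on UTRs were counted, and with the fragments divided by merged exon length, a scale added after the data were seen, Pla2g4a (8.13 per exon kilobase) came before Ptges2 (5.29), Ptgs1 (4.83) before Ptger4 (2.85), and Ptgis (0.254) before Ptges (0.234). Ptges3 and Ptgs2 kept the first and second place, at 86.0 and 26.1 per exon kilobase. The Ptgs2 share of cyclooxygenase was 86.4% by coding length and 84.4% by exon length over the 6 libraries.

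**Figure D4:**
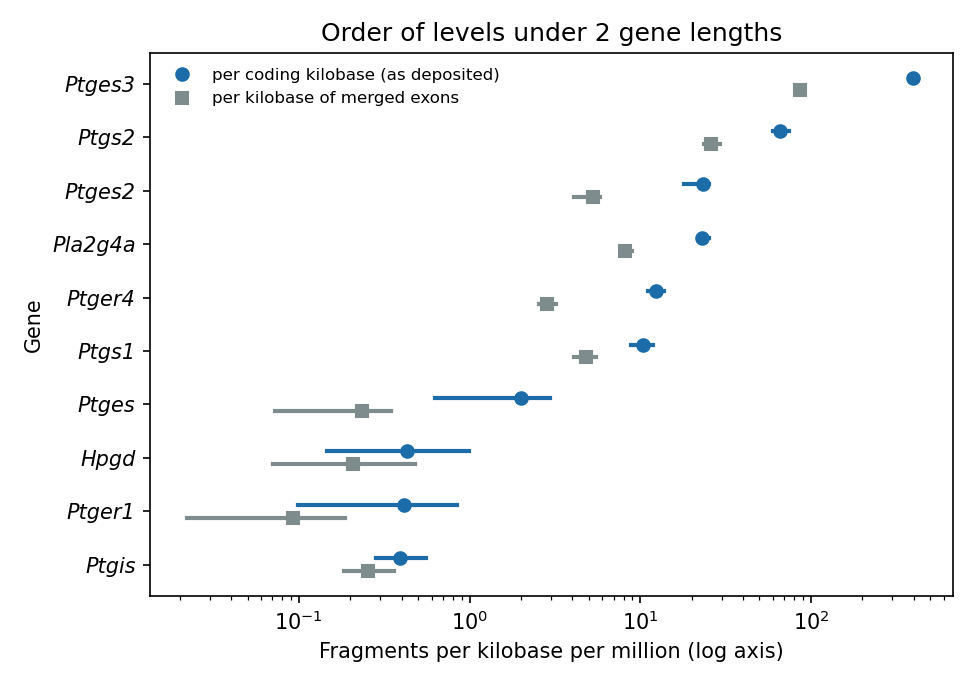
Mean level over the 6 libraries (points) and range (lines) of the 10 genes, in the unit of FPKM on a log axis, with the length taken as coding sequence, as deposited, or as merged exons. Ptges3 and Ptgs2 lead on both scales, and the order of Ptges2 and Pla2g4a, of Ptger4 and Ptgs1, and of the lowest genes changes.

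Factors known to act on Ptgs2 transcription and on the stability of its mRNA were read from a list of 19, all tested. None of the 19 had an adjusted p under 0.05 in limma, and 5 had an unadjusted p under 0.05, where 17.6% of all tested genes did. The voom fit called 2, Nfkb1 and Jun (adjusted p = 0.0213 and 0.0440), beside 5.12% of all tested genes. Nfkb1, an NF-κB subunit, averaged 90.2 ± 2.79 and 101.1 ± 2.67 FPKM (SD, n = 3 each; log2 fold change 0.16, limma adjusted p = 0.0759). Jun, an AP-1 subunit, averaged 56.3 ± 3.46 and 47.0 ± 3.25 FPKM (SD, n = 3 each; log2 fold change −0.26, limma adjusted p = 0.0835). Fos, its AP-1 partner, averaged 6.66 ± 0.320 and 4.84 ± 0.448 FPKM (log2 fold change −0.46, limma adjusted p = 0.0719). Jun and Fos averaged lower and Nfkb1 higher under the label LPSKD, all short of the threshold in limma.

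None of the C/EBP and AU-rich element factors passed the test. Cebpb averaged 90.4 and 85.2 FPKM and Cebpd 11.4 and 10.1 FPKM (limma adjusted p = 0.627 and 0.417). Zfp36, which promotes decay of AU-rich mRNA, averaged 21.1 and 22.4 FPKM, and Elavl1, which stabilises such mRNA, averaged 89.4 and 93.9 FPKM (limma adjusted p = 0.627 and 0.626). Tia1, an AU-rich element binding protein that holds back translation of Ptgs2 mRNA, averaged 34.9 ± 0.381 and 30.98 ± 1.71 FPKM (SD, n = 3 each) with groups that did not overlap (log2 fold change −0.17, SE 0.05, unadjusted p from limma 0.0117, adjusted p = 0.147). Rela, the NF-κB subunit p65, averaged 85.9 FPKM in each group (adjusted p = 0.995). Anxa1, known to restrain phospholipase A2, was the most abundant of the list at 1482 ± 84.3 and 1605 ± 60.5 FPKM (SD, n = 3 each; limma adjusted p = 0.259).

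Because EP2 and EP4 raise cyclic AMP, 12 genes known to respond to it were read as well. Of the 11 tested, 1 was called, beside 3.23% of all tested genes. It was Areg, the EGF receptor ligand amphiregulin (chr5:91139599-91148432), which many signals besides cyclic AMP also induce. Areg had 41.3, 47.5 and 46.0 FPKM under the label LPS and 30.1, 28.9 and 27.2 under LPSKD. Every library labelled LPSKD was lower, and the log2 fold change was −0.64 (SE 0.07, limma adjusted p = 0.00157, from 2.86e-04 to 0.0244 over the alternatives). Dusp1 averaged 90.3 ± 1.97 and 100.1 ± 2.06 FPKM (SD, n = 3 each; log2 fold change 0.15, limma adjusted p = 0.0815), and Nr4a1, Sik1, Egr1 and Crem had adjusted p between 0.4996 and 0.860. Fos, which is also on this list, averaged lower under the label LPSKD (log2 fold change −0.46, limma adjusted p = 0.0719). At an unadjusted p under 0.05 from limma the count was 3 of the 11 (Areg, Fos and Dusp1), where 17.6% of all tested genes passed. The list did not move one way, with 6 tested genes higher and 5 lower under the label LPSKD and a median log2 fold change of 0.0013.

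The lipoxygenase branch, which also draws on arachidonic acid, was read from 13 genes, of which 5 were tested, 0 were called by limma or voom and 0 had an unadjusted p under 0.05. Lta4h, the leukotriene A4 hydrolase, averaged 74.4 ± 1.76 and 74.8 ± 2.40 FPKM (SD, n = 3 each). Cysltr1, a cysteinyl leukotriene receptor, averaged 24.2 ± 2.04 and 26.6 ± 0.842 FPKM (SD, n = 3 each; limma adjusted p = 0.342). Alox5, the enzyme that opens the branch, had at most 10 fragments in a library. Among the genes too low for the test, Aloxe3, an epidermal lipoxygenase, had 7, 28 and 14 fragments under the label LPS and 6, 4 and 2 under LPSKD, and Ltb4r1, a leukotriene B4 receptor, had 0 in all but 2 libraries labelled LPSKD, with 4 and 5. In the fit of all genes above 0 their unadjusted p from limma was 0.0244 and 0.0446, and their adjusted p 0.273 and 0.348.

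Other cell types that can express prostaglandin genes were read through their markers. The 6 macrophage markers summed to between 58.1 and 64.6 FPKM under the label LPS and between 61.4 and 74.5 under LPSKD. Of the 5 tested, 1 (Csf1r) had a log2 fold change above 0 and 4 had one below 0, and 2 (Csf1r and Cd68) had an unadjusted p under 0.05. Csf1r alone was called (24.4 ± 2.74 and 33.3 ± 0.583 FPKM, SD, n = 3 each, limma adjusted p = 0.0208, and 0.0902 without LPS replicate 3), beside 3.23% of all tested genes. Cd68 averaged 13.7 and 11.1 FPKM and Lyz2 21.55 and 21.4 FPKM, and Itgam had at most 4 fragments. The 6 fibroblast markers summed to between 28.6 and 36.9 FPKM under the label LPS and between 19.2 and 36.7 under LPSKD, with 0 of 6 called by limma or voom and 0 at an unadjusted p under 0.05. The 5 endothelial markers summed to between 2.67 and 5.21 FPKM under the label LPS and between 3.12 and 5.32 under LPSKD, with 0 of 3 called by either and 0 at an unadjusted p under 0.05. Their part in the values of the prostaglandin genes was not tested.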

How the data were processed

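RNA-seq of 3 libraries labelled LPS and 3 labelled LPSKD was analysed. The authors deposited FPKM values, 1 per gene and library, without pooling. The submitters' processing notes name Bowtie 0.12.2, HISAT2 2.0, StringTie 1.3.0 and the builds mm8 and GRCh38.p13, without roles. Gene identifiers are mouse Ensembl ones, 22399 of 22442 matched a GENCODE M21 symbol, and coordinates are that annotation's, on GRCm38. Whole fragments were recovered from the FPKM values and the library totals: all 16837 genes above 0 came out whole within 0.001 of a fragment, with the merged coding length plus 0 to 10 bases serving for 16456 (97.7%) and a searched length for 381. These counts cover counting error only, and a count of 0 allows 3 fragments.

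limma 3.58.1 in R 4.3.3 (lmFit, eBayes with trend) was fitted without covariates to log2(FPKM + 0.1), keeping genes that averaged 0.5 FPKM or more, with Benjamini-Hochberg adjustment at 0.05. In data simulated for this comparison, 200 of 200 genes changed 2-fold were recovered among 11714, 3 unchanged genes were called, and 0 were called when none changed. Every simulated gene had the same spread (SD 0.1 on the natural log scale) without counting noise, and the changed genes averaged above 2 FPKM. The simulation therefore does not show how often smaller differences, or differences in low or noisier genes, would be found. Replicates of a group differed beyond counting noise (chi-square per gene 4.1 to 10.5). Permutation tests were exact and two-sided over 20 assignments. Shared sequence was counted over stretches of 31 bases in annotated transcripts on either strand. Promoters and start sites came from RefSeq on GRCm38.p6.

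The 10 genes, the lists, the tests and the alternatives were chosen with earlier results of these data known. Named were every one of the 10, Stat3, the genes of the other pathway lists with an adjusted p under 0.05 or a mean FPKM of at least 10 (described individually or within counts), and the 5 genes most correlated with Ptgs2. Genes named below that level and single markers were chosen after their values were seen. The shared sequence of 1 of the 10 genes is not reported here. Alternatives were pseudocounts of 1 and 0.01, filters at 1, 0.1 and none, quantile normalization, median centring, a block for the replicate number, eBayes without trend, voom on recovered fragments and omission of each library. Python 3.11.15, pandas 2.3.3 and matplotlib 3.10.9 were used for the rest.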

Additional observations from a re-analysis of the deposited data

How the results depend on the processing

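The count over all tested genes, 379, became 140 without the eBayes trend and 600 with voom, and lay between 158 and 357 with a library left out. For the 10 genes the count of 0 became 1 with voom (Ptgs2) and lay between 0 and 1 with a library left out. For the 40 further pathway genes, the count of 2 was 1 without the trend and 4 with voom, and lay between 1 and 3 with a library left out. For the 3 lists of regulators, cyclic AMP-responsive and leukotriene genes together, the count of 1 was 3 with voom and stayed at 1 with each library left out.

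The labels give replicate numbers with nothing on pairing, and same-numbered libraries did not deviate together (correlations −0.0236, 0.0410 and −0.0963). With the replicate number as a block, the count was 213 over all genes, 3 for the pathway genes (with Slco2a1) and 2 for the 3 lists (with Jun).

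Some signs turned. With quantile normalization, Ptges3 was at −0.0070 and Ptger1 at 0.00090, and with a pseudocount of 1 Ptger1 was at 0.045. With a library left out, log2 fold changes ran from −0.12 to 0.86 for Ptges, −0.012 to 0.052 for Ptges3, −0.083 to 0.0016 for Pla2g4a, −0.33 to 0.75 for Hpgd, −0.44 to −0.23 for Ptgis, −0.56 to 0.56 for Ptger1, −0.0039 to 0.15 for Ptger4 and −0.064 to 0.044 for Stat3. Likewise the difference in the Ptges share ran from −0.0479 to 0.212 percentage points and that in the log2 ratio of Ptgs2 to Hpgd from −0.913 to 0.132. The cause of these shifts was not tested. Ptges, Ptgis, Ptger1 and Hpgd had under 35 fragments in every library, which limits their precision. Ptgs1, Ptgs2 and Ptges2 kept their sign in all 16 alternatives, and Ptgis kept its sign in the 14 fitted for it.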

Other observations

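The 5 genes whose log2(FPKM + 0.1) followed Ptgs2 most closely over the 6 libraries, among 11027 genes that averaged 1 FPKM or more, were Il1rap, Kpna2, Fam13b, Yipf2 and Xrn2, with Pearson r between 0.993 and 0.997. Il1rap, the accessory protein of the interleukin-1 receptor, had 3.85, 4.83 and 4.25 FPKM under the label LPS and 3.35, 3.27 and 3.02 under LPSKD. Kpna2, a nuclear import adaptor, had 211.7, 228.6 and 221.7 FPKM under the label LPS, against 206.6, 205.3 and 201.2 under LPSKD. All 6 points share the split between the groups and the high value of LPS replicate 2, and no test was made of these correlations.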
